A study of Mus musculus with 28 samples.

Results

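The 10 genes described here encode enzymes that remove reactive oxygen species or keep that removal supplied, and most of them are targets of the transcription factor NRF2 (*Nfe2l2*). They are *Nqo1*, *Gclc*, *Gclm*, *Hmox1*, *Txnrd1*, *Srxn1*, *Cat*, *Sod1*, *Sod2* and *Gpx1*, chosen by symbol, and they make up 10 of the 49585 features counted. Each matched 1 Ensembl identifier, and all 10 were among the 21583 genes tested. RNA was sequenced from the livers of 28 C57BL/6JOlaHsd mice aged 5 to 7 months on standard chow, 7 in each of 4 groups. WT and SIRT6-tg mice of each sex formed the groups, and by the study's methods they were littermates and were fasted for some hours before collection. The transgene overexpresses *Sirt6*, an NAD+-dependent deacylase of chromatin. All SIRT6-tg mice came from 1 transgenic line that was made in a hybrid background and then backcrossed, so effects of the line and of the transgene cannot be told apart, and the promoter that drives the transgene is not given in the sources used here.

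NRF2 is held in the cytoplasm by KEAP1 and broken down by the proteasome. Oxidants and electrophiles modify KEAP1, and NRF2 then enters the nucleus, pairs with a small MAF protein and binds the antioxidant response element of its target genes. In the liver this program makes glutathione, recycles thioredoxin and clears quinones and haem. Superoxide dismutases turn superoxide into hydrogen peroxide, which catalase in peroxisomes and glutathione peroxidases then remove, and these enzymes are abundant in hepatocytes without any stress.

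Of the 10 genes, 8 had an entry in the RefSeq table of promoter windows (GRCm38.p6), and the 250 bases before each annotated start were searched for the core of the antioxidant response element on both strands. The core was written TGACNNNGC, and the form TGAGNNNGC was added after the windows had been read. TGACNNNGC was found in 10.2% of all 32851 windows, TGAGNNNGC in 14.4%, and at least one of the forms in 23%. Among the 10 windows of these genes, a form was found in those of *Gclm*, *Srxn1* and *Sod1* and in 1 window of *Txnrd1*, which makes 4 of 10 windows. By gene this is 4 of 8, for which no share over all genes was counted, and *Txnrd1* had more than 1 window. *Srxn1* held only the form that was added later. A match is a run of letters and not a measured binding site. The 4 windows are shown because they carry the letters through which NRF2 is known to act, 5′ to 3′ on the plus strand, which is the strand of all 4 genes, with each match in capitals. In the order shown they lie at chr3:122245307-122245556, chr2:152105274-152105523, chr16:90220512-90220761 and chr10:82858956-82859205.
Gclm: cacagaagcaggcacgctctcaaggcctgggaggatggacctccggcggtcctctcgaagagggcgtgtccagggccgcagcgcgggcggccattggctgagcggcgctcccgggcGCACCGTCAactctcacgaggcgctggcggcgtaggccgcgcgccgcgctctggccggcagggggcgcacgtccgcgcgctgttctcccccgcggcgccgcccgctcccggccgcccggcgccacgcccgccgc
Srxn1: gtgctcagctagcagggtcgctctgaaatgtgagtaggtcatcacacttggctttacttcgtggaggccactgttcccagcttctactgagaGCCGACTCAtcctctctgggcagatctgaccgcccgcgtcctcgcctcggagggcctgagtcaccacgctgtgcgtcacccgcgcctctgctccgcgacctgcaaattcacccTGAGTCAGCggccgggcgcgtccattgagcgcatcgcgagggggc
Sod1: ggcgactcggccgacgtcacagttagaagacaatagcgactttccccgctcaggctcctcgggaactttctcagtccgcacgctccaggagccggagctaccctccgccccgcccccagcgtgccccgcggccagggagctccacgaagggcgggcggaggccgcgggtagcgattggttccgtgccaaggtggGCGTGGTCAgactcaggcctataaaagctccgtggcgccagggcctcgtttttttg
Txnrd1: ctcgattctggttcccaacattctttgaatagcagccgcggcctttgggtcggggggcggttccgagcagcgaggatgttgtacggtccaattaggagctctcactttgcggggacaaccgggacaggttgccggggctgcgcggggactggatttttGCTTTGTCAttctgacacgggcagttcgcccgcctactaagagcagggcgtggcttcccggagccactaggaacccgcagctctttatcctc
The match in *Gclm* began 134 bases before the start and read on the opposite strand, as did those of *Sod1* at 56 bases and of *Txnrd1* at 92 bases. *Srxn1* held one match at 158 bases on the opposite strand and one at 45 bases on its own strand.

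The genes themselves are spread over 7 chromosomes of GRCm38, each counted over all its exons, UTRs included. *Nqo1* lies at chr8:107388225-107403206 on the minus strand and *Hmox1* at chr8:75093621-75100589 on the plus strand. *Gclc* lies at chr9:77754535-77794485 and *Gpx1* at chr9:108338903-108340343, both on the plus strand. *Srxn1*, at chr2:152105516-152111376, is on the plus strand and *Cat*, at chr2:103453849-103485160, on the minus strand. *Gclm* lies at chr3:122245557-122270732, *Txnrd1* at chr10:82833951-82897712, *Sod1* at chr16:90220754-90226329 and *Sod2* at chr17:13006846-13040063, all on the plus strand.

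*Sirt6* was checked first. Its level is given in CPM, the read count relative to the library total, after TMM scaling, which sets the libraries so that most genes keep their level. *Sirt6* lay between 1.69 and 3.24 CPM in male WT livers and between 198 and 358 CPM in male SIRT6-tg livers. In females it lay between 1.80 and 6.22 CPM in WT and between 16.4 and 50.2 CPM in SIRT6-tg livers. Every library thus matched the genotype in its label, and the sex in the labels is not checked by this. The log2 fold change of *Sirt6* was 6.68 (SE 0.30) in males and 3.39 (SE 0.26) in females. The difference between these, 3.29, passed edgeR's quasi-likelihood test (adjusted p = 7.0e-06), so that the male and female comparisons differ in the degree of overexpression as well as in sex. Library totals ranged from 18758863 to 35393069 counts. The defining markers of hepatocytes were present in every group, at 110564 to 212650 CPM summed over the 11 listed. TMM factors were 1.06 to 1.17 in male WT and 0.821 to 0.993 in male SIRT6-tg libraries, so these groups depend on the scaling more than the female groups do, whose factors were 0.906 to 1.06.

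Per kilobase of the principal transcript, *Gpx1*, *Sod1* and *Cat* stood far above the other 7 genes. In male WT livers *Gpx1*, the main cytosolic glutathione peroxidase, had a level of 1632 ± 371 CPM per kilobase (SD, n = 7). *Sod1*, the cytosolic copper-zinc superoxide dismutase, followed with 1198 ± 330 and *Cat*, the catalase of peroxisomes, with 808 ± 167 CPM per kilobase. *Gclc*, the catalytic subunit of glutamate-cysteine ligase, came next with 78.1 ± 18.7 CPM per kilobase. Then came *Txnrd1*, *Gclm*, *Hmox1*, *Sod2* and *Srxn1*, from 46.1 down to 25.0 CPM per kilobase, and neighbours among these differed by less than the SD of the more variable of the pair. *Nqo1*, a quinone reductase widely used as a marker of NRF2 activity, was lowest with 6.24 ± 1.81 CPM per kilobase, from 172 to 612 reads in a male WT library. The length used matters: over all annotated exons *Sod1* was at 193, *Txnrd1* at 23 and *Sod2* at 18.9 CPM per kilobase.

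Male SIRT6-tg and male WT livers were compared to ask how *Sirt6* overexpression changed these genes in young males. Under TMM the set split: *Sod2*, *Cat*, *Sod1* and *Gclm* were higher in SIRT6-tg males, *Hmox1* and *Srxn1* were lower, and the other 4 genes did not pass the test, while by library size alone or by hepatocyte markers none was called higher and *Gclm* turned negative by the latter. *Hmox1* and *Srxn1* were called lower under each of the 5 scalings. The 6 of 10 genes called at an adjusted p under 0.05 stand against 20.7% of all genes tested, 9.68% higher and 11% lower. The median log2 fold change of the 10 genes was 0.24, against 0.06 over all genes, and it was -0.038 by library size alone and -0.11 by hepatocyte markers, where the median of all genes was -0.22 and -0.30. Over all genes the calls split into 2090 higher and 2377 lower under TMM, 1395 and 2511 under RLE, 942 and 2649 under upper-quartile factors, 210 and 4084 by library size alone, and 109 and 4392 by hepatocyte markers.

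**Figure D1:**
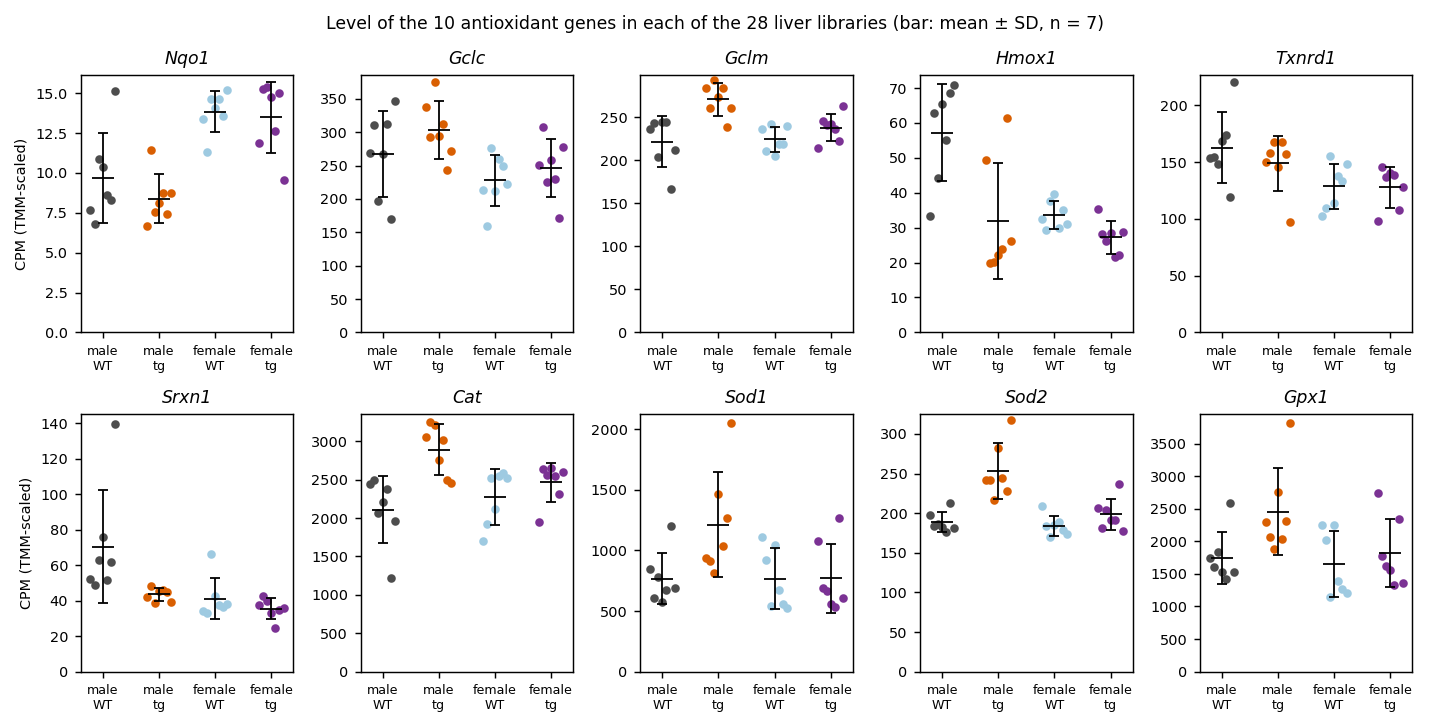
Level of each of the 10 genes (panels, vertical axis CPM scaled by TMM) in the 4 groups (horizontal axis), with 1 point per mouse and the mean ± SD of 7 mice as bars. In males, all 7 SIRT6-tg points lie above all WT points for *Sod2* and below them for *Srxn1*, whereas the female groups overlap in every panel.

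*Hmox1*, the inducible haem oxygenase, was the member that fell most. In male WT livers it ranged from 33.4 to 70.8 CPM with a median of 62.9, and in male SIRT6-tg livers from 19.8 to 61.4 CPM with a median of 23.9. In all, 5 SIRT6-tg mice were below every WT mouse, whereas SIRT6-tg replicate 1, at 49.5 CPM, and replicate 6, at 61.4 CPM, lay inside the WT range. The log2 fold change was -0.84 (SE 0.21, edgeR adjusted p = 0.0042). Kupffer cells and other macrophages express *Hmox1*, and all 13 of their listed markers fell in the same comparison, from a summed 613 to 1964 CPM in male WT to 500 to 849 CPM in male SIRT6-tg livers. None of the 13 was at 0 throughout a group, and *Clec4f*, which marks Kupffer cells, fell by 0.55 and *Marco*, a scavenger receptor of macrophages, fell by 3.29 on the log2 scale. After the group means were subtracted, *Hmox1* had r = 0.551 with that sum over the 28 libraries, as a description, and *Gclm* and *Cat* had values farther from 0, -0.596 and -0.585. Of the SIRT6-tg mice with *Hmox1* inside the WT range, replicate 6 had the highest macrophage sum of its group, 849 CPM, while replicate 1 was near the lowest, at 502 CPM. The part of these cells in the *Hmox1* result was not tested, and in whole liver fewer cells of a type and less RNA per cell cannot be told apart.

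*Srxn1* encodes sulfiredoxin, which repairs overoxidised peroxiredoxins. It ranged from 49 to 139 CPM with a median of 62.0 in male WT and from 38.7 to 48.2 CPM with a median of 44.9 in male SIRT6-tg livers. The ranges did not overlap, as was the case for 6.98% of all genes, 2.6% above and 4.37% below. The highest WT mouse, replicate 7, stood apart from the rest. The log2 fold change was -0.70 (SE 0.18, edgeR adjusted p = 0.0061). Without male WT replicates 6 and 7 the log2 fold change of *Srxn1* was -0.42 (SE 0.14, edgeR adjusted p = 0.0454), so that it stayed called at a smaller size. Within groups *Srxn1* had r = 0.28 with the macrophage sum.

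*Sod2*, the manganese superoxide dismutase of mitochondria, ranged from 176 to 213 CPM (median 183) in male WT and from 216 to 318 CPM (median 242) in male SIRT6-tg livers. Every SIRT6-tg mouse was above every WT mouse. The log2 fold change was 0.43 (SE 0.085, edgeR adjusted p = 4.3e-04), but 0.13 by library size alone and 0.044 by hepatocyte markers, neither of which passed. *Cat* ranged from 1225 to 2499 CPM (median 2214) in male WT and from 2456 to 3256 CPM (median 3013) in male SIRT6-tg livers. All but 1 of the SIRT6-tg mice were above the highest WT mouse, and the log2 fold change was 0.45 (SE 0.13, edgeR adjusted p = 0.0089). The call was lost by library size alone (0.18), by hepatocyte markers (0.11) and with the trend on exon length and GC content removed (0.40, adjusted p = 0.0596).

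*Sod1* had the highest log2 fold change of the 10 genes and a wide spread. It ranged from 578 to 1201 CPM (median 687) in male WT and from 814 to 2047 CPM (median 1034) in male SIRT6-tg livers, with 3 SIRT6-tg mice above the highest WT mouse and all 7 above the WT mean. The log2 fold change was 0.66 (SE 0.23), and the edgeR adjusted p of 0.0404 was close to the threshold. Leaving out any 1 of 10 libraries took *Sod1* over it, to adjusted p between 0.0535 and 0.148. These were male WT replicates 1 to 5 and 7, male SIRT6-tg replicates 4, 6 and 7, and female SIRT6-tg replicate 7, and the highest of those p values, with a log2 fold change of 0.47, came without male SIRT6-tg replicate 7, which had the highest *Sod1*. *Gpx1* ranged from 1415 to 2592 CPM (median 1607) in male WT and from 1878 to 3821 CPM (median 2301) in male SIRT6-tg livers. All 7 SIRT6-tg mice were above the WT mean of *Gpx1*, but the log2 fold change of 0.49 (SE 0.19, edgeR adjusted p = 0.0665) did not pass. Without male WT replicate 6, the highest WT mouse, it was 0.61 with an adjusted p of 0.0201, and without male SIRT6-tg replicate 3 it was 0.54 with an adjusted p of 0.0472.

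The subunits of glutamate-cysteine ligase, which catalyses the first step of glutathione synthesis, differed in their calls. *Gclm*, the modifier subunit, ranged from 167 to 245 CPM (median 236) in male WT and from 239 to 294 CPM (median 273) in male SIRT6-tg livers, and 6 of 7 SIRT6-tg mice were above the highest WT mouse. Its log2 fold change was 0.29 (SE 0.082, edgeR adjusted p = 0.0113), 0.24 with an adjusted p of 0.0613 without male WT replicate 7, 0.21 and not called without male WT replicates 6 and 7, and -0.062 by hepatocyte markers. The call of *Gclm* was also lost with upper-quartile factors (0.209, adjusted p = 0.0644), with only the groups compared (0.257, adjusted p = 0.0756) and by library size alone. *Gclm* shares 296 exon bases with *Gm17494* on the opposite strand and 244 with the pseudogene *Gm6061* on its own, and the strand setting of the counting is not given in the sources used here. *Gclc* ranged from 170 to 347 CPM (median 268) in male WT and from 244 to 376 CPM (median 294) in male SIRT6-tg livers, and the groups overlapped. Its log2 fold change was 0.18 with a 95% interval of -0.095 to 0.46, so a rise as large as that of *Gclm* lies within it, and it was -0.087 by library size alone.

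*Txnrd1*, the cytosolic thioredoxin reductase, ranged from 119 to 221 CPM (median 155) in male WT and from 96.9 to 168 CPM (median 157) in male SIRT6-tg livers. The groups overlapped, with a log2 fold change of -0.13 (95% interval -0.38 to 0.12). *Nqo1* ranged from 6.80 to 15.2 CPM (median 8.63) in male WT and from 6.70 to 11.4 CPM (median 8.11) in male SIRT6-tg livers. It overlapped too, with a log2 fold change of -0.21 (95% interval -0.49 to 0.071). *Nqo1* passed as lower by library size alone (-0.50, edgeR adjusted p = 0.0161) and by hepatocyte markers (-0.60, adjusted p = 0.013), and *Txnrd1* passed by the latter (-0.48, adjusted p = 0.0474).

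**Figure D2:**
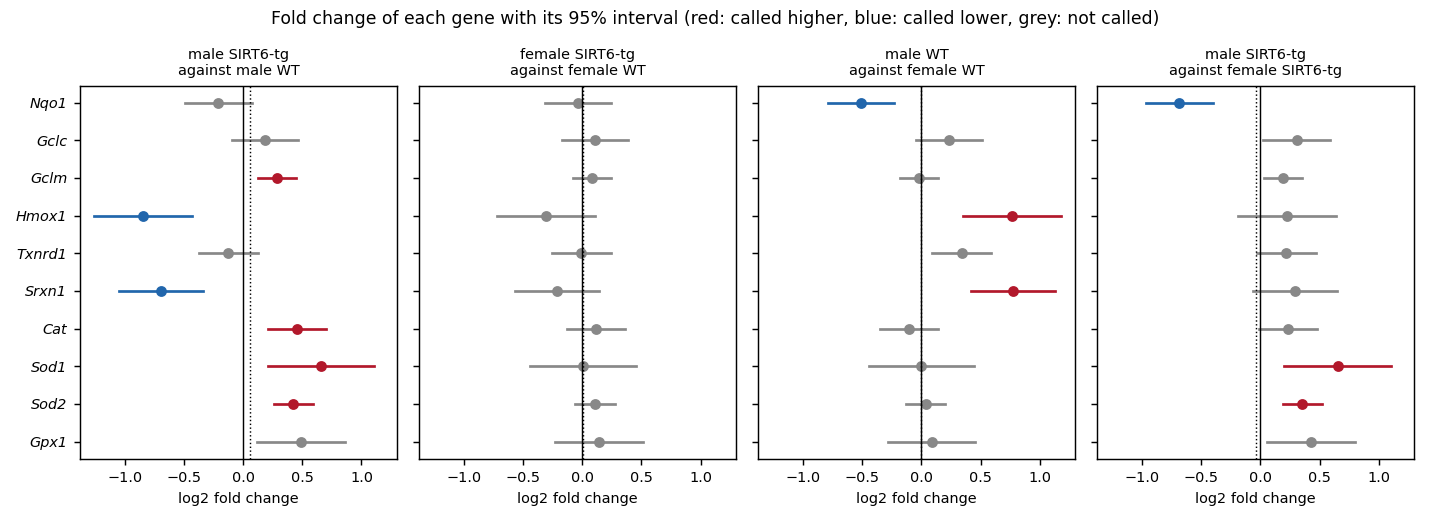
Log2 fold change (horizontal axis) of each gene in the 4 comparisons between groups of 7 mice under TMM, with bars for the 95% interval and a dotted line at the median of all genes. Male genotypes differ in 6 genes, of which 4 are higher under TMM and 0 by library size alone, female genotypes in none, and *Nqo1* is lower in males than in females in both genotypes, though not in WT by hepatocyte markers.

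**Figure D3:**
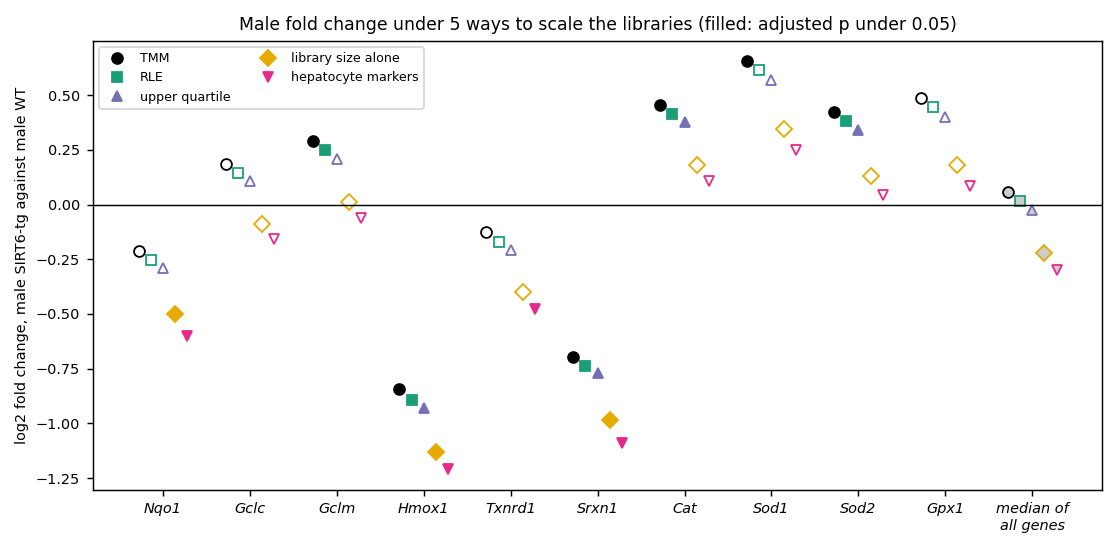
Log2 fold change between male SIRT6-tg and male WT livers (vertical axis) for each gene and for the median of all genes tested, under 5 ways to scale the libraries, with filled points for an adjusted p under 0.05 and grey points for the median, which has no test. *Hmox1* and *Srxn1* stay lower and filled under all 5, *Gclc* and *Gclm* change sign under some, and by library size alone or by hepatocyte markers no gene above 0 is filled.

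Another scaling shifts the log2 fold changes of all genes by nearly the same amount, so the distance of a gene from the median of all genes is nearly fixed by construction and says nothing on whether its call is stable. On this log2 scale *Sod1* lay between 0.55 and 0.60 above the median under the 5 scalings, *Cat* between 0.40 and 0.41, *Sod2* between 0.345 and 0.369 and *Gclm* between 0.23 and 0.24. *Hmox1* was at -0.90 to -0.91 and *Srxn1* at -0.75 to -0.79 relative to the median.

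In females the same comparison gave no call among the 10 genes by edgeR, none at an unadjusted p under 0.05, and none by DESeq2. Over all genes 0.0278% were called, which are 6 genes, and 1212 had an unadjusted p under 0.05. The female groups overlapped for each of the 10, and 0.0834% of all genes had groups that did not overlap. The lowest value was that of *Hmox1*, which ranged from 29.2 to 39.7 CPM (median 32.6) in WT and from 21.7 to 35.4 CPM (median 28.2) in SIRT6-tg livers. Of the SIRT6-tg females 6 of 7 were below the lowest WT female, and the log2 fold change was -0.31 with a 95% interval of -0.72 to 0.11. *Srxn1* ranged from 32.8 to 66.2 CPM (median 37.5) in WT and from 24.4 to 42.7 CPM (median 36) in SIRT6-tg livers, with a log2 fold change of -0.21 (95% interval -0.57 to 0.14). *Sod2* ranged from 169 to 209 CPM (median 183) in WT and from 178 to 237 CPM (median 191) in SIRT6-tg livers, with a log2 fold change of 0.11 (95% interval -0.059 to 0.27). The other 7 genes had log2 fold changes between -0.034 for *Nqo1* and 0.14 for *Gpx1*. The interval of *Sod1*, -0.44 to 0.45, leaves room for a change of either sign. Macrophage markers, which fell in males, were at 669 to 1380 CPM in WT and 537 to 1316 CPM in SIRT6-tg females, and 0 of 13 were called.

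The difference between the genotype effects of males and females was tested directly. None of the 10 genes passed by edgeR or by DESeq2, against 5.05% of all genes by edgeR, and 1 had an unadjusted p under 0.05. That was *Sod2*, whose effect was larger in males by 0.32 on the log2 scale (SE 0.12, adjusted p = 0.1285). *Sod1* had the largest value, 0.65 (SE 0.32, adjusted p = 0.2755), and *Hmox1* and *Srxn1* had values of -0.54 (SE 0.30) and -0.48 (SE 0.26). With 2 surrogate variables in the fit *Cat*, *Sod1* and *Sod2* passed, at edgeR adjusted p between 0.00399 and 0.0342. More genes passed there in general, 1478 higher and 1285 lower of 21583, against 260 and 829 in the fit reported. With factors from hepatocyte markers *Hmox1* and *Srxn1* passed instead, at edgeR adjusted p of 0.0343 and 0.0292, and the value of *Sod2* was then -0.18. Over all genes 17 were called higher and 2911 lower with these factors. The calls of the male comparison are thus not shown to be particular to males in the fit reported here.

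Between the sexes of one genotype, *Nqo1* was lower in males under TMM, whereas *Hmox1* and *Srxn1* in WT mice and the superoxide dismutases in SIRT6-tg mice were higher. In WT mice 3 of 10 genes were called, against 12.4% of all genes, 6.65% higher and 5.71% lower, and 9 of 10 were higher by hepatocyte markers, where the median of all genes was 0.55. *Nqo1* ranged from 6.80 to 15.2 CPM in WT males and from 11.3 to 15.2 CPM (median 14.1) in WT females, with 6 of 7 males below the lowest female. Its log2 fold change was -0.51 (SE 0.14, edgeR adjusted p = 0.0158), -0.31 by library size alone (adjusted p = 0.149) and 0.071 by hepatocyte markers. *Hmox1* was higher in WT males than in WT females by 0.77 on the log2 scale (SE 0.21, adjusted p = 0.0143), with 6 of 7 males above the highest female. *Srxn1* was higher in WT males by 0.77 (SE 0.18, adjusted p = 0.0041), with 2 males above the highest female. Without male WT replicates 6 and 7, *Srxn1* was still called at 0.50 (adjusted p = 0.0296), and *Hmox1* was not (0.64, adjusted p = 0.0976). *Txnrd1* was not called in WT mice (0.34, adjusted p = 0.0799), but it passed as higher in males in 9 of 41 alternatives. These were DESeq2 (adjusted p = 0.0311), filterByExpr (0.0425), 2 surrogate variables (1.74e-04), the length and GC trend removed (0.00561), library size alone (0.011), hepatocyte markers (1.08e-04), and the fits without male WT replicate 6 (0.0328), without male SIRT6-tg replicate 7 (0.0435) or without both (0.0135). Under TMM, 2 of 13 macrophage, 10 of 10 T cell and 1 of 7 erythroid markers were higher in WT males than females. In the same comparison 3 of 11 hepatocyte markers and 1 of 6 cholangiocyte markers were lower. The hepatocyte sum was 110564 to 149783 CPM in WT males and 169917 to 212650 CPM in WT females. The part of all those cells was not tested.

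In SIRT6-tg mice 3 of 10 genes were called between the sexes, against 23.1% of all genes, 12.9% higher and 10.2% lower. *Sirt6* was itself higher in SIRT6-tg males than in SIRT6-tg females, by 3.22 on the log2 scale (SE 0.25, edgeR adjusted p = 9.0e-11). Sex and the degree of overexpression therefore cannot be told apart in this comparison. *Nqo1* ranged from 6.70 to 11.4 CPM in SIRT6-tg males and from 9.56 to 15.4 CPM (median 14.8) in SIRT6-tg females, with 6 of 7 males below the lowest female. Its log2 fold change was -0.69 (SE 0.14, edgeR adjusted p = 8.6e-04). *Sod2* was higher in males by 0.35 (SE 0.085, adjusted p = 0.0030), with 5 of 7 males above the highest female. *Sod1* was higher by 0.65 (SE 0.23, adjusted p = 0.0387), with 3 of 7 males above the highest female. It missed the threshold without any 1 of 8 libraries, male SIRT6-tg replicates 4, 6 and 7 and female SIRT6-tg replicates 2 to 5 and 7, at adjusted p between 0.0526 and 0.12. It also missed it with upper-quartile factors (0.575, adjusted p = 0.076), by library size alone (0.541, adjusted p = 0.0527), with no filter on low counts (adjusted p = 0.0703), with only the groups compared (adjusted p = 0.0547) and without male WT replicate 6 and male SIRT6-tg replicate 7 together, so *Sod1* was lost in 13 of 41 alternatives. *Gpx1* was not called (0.43, adjusted p = 0.1005), and passed without female SIRT6-tg replicate 1 (0.56, adjusted p = 0.027). *Hmox1* and *Srxn1* were not called here, with log2 fold changes of 0.23 (SE 0.21) and 0.29 (SE 0.18). In the same comparison 4 of 13 macrophage markers, 3 of 6 stellate cell markers, 1 of 10 T cell markers and 1 of 6 cholangiocyte markers were lower in males and 1 of 7 erythroid markers was higher under TMM. Of 11 hepatocyte markers 1 was higher and 1 lower, and the part of all these cells was not tested. Each comparison between the sexes shares its mice with the genotype comparisons above.

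Within groups, the 10 genes varied in blocks from mouse to mouse. After the group means were subtracted, *Sod1*, *Gpx1* and *Sod2* went up and down together over the 28 libraries, with r = 0.946 for *Sod1* and *Gpx1* and r = 0.820 for *Sod1* and *Sod2*. *Cat*, *Txnrd1*, *Gclm* and *Gclc* went the opposite way, with r = -0.872 for *Txnrd1* and *Gpx1* as the lowest of 45 pairs. *Nqo1* and *Srxn1* varied with each other at r = 0.642. These correlations are descriptions over libraries that share preparation, depth and scaling. The first 2 blocks are not particular to these genes. The main axis of within-group variation over genes with a mean of at least 1 CPM held 42.7% of that variance. With it *Sod1* had r = 0.960, *Gpx1* 0.954, *Sod2* 0.755, *Gclc* -0.646, *Gclm* -0.690, *Txnrd1* -0.822 and *Cat* -0.879. The first 2 blocks moved with the slope of each library's deviations on exon length. *Sod1* and *Gpx1* had r = -0.970 and -0.962 with this slope, *Sod2* had -0.764, and *Cat* and *Txnrd1* had 0.842 and 0.825. *Hmox1*, *Nqo1* and *Srxn1* had -0.131, 0.0538 and 0.00197. The slope was fitted on the length of all annotated exons. Over these *Gpx1* has 1441 bases, *Nqo1* 1553, *Hmox1* 1751, *Sod1* 3970 and *Sod2* 10008. By principal transcript *Sod1* and *Gpx1* are the shortest of the set at 641 and 1072 bases, and *Sod2* is the longest at 5861. Neither length puts the r values of the 10 genes in order. The same blocks also moved with marker sums of other cells. With the erythroid sum *Sod1* had r = 0.897, *Gpx1* 0.895, *Sod2* 0.76 and *Txnrd1* -0.797, and with the cholangiocyte sum *Cat* had -0.783. Which of these measures the blocks follow was not tested.

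The slope was lowest in male WT replicate 6 (-0.209) and male SIRT6-tg replicate 7 (-0.269), and these libraries held the highest *Sod1* and *Gpx1* and the lowest *Cat* and *Txnrd1* of their groups. Without both, 6 genes were still called in males, 4 higher and 2 lower. With the trend on exon length and GC content removed in each library, *Sod2* was higher by 0.51 (edgeR adjusted p = 0.0080), *Gpx1* by 0.38 (adjusted p = 0.0049) and *Gclm* by 0.32 (adjusted p = 5.4e-04), and *Sod1* just missed (0.63, adjusted p = 0.0539).

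**Figure D4:**
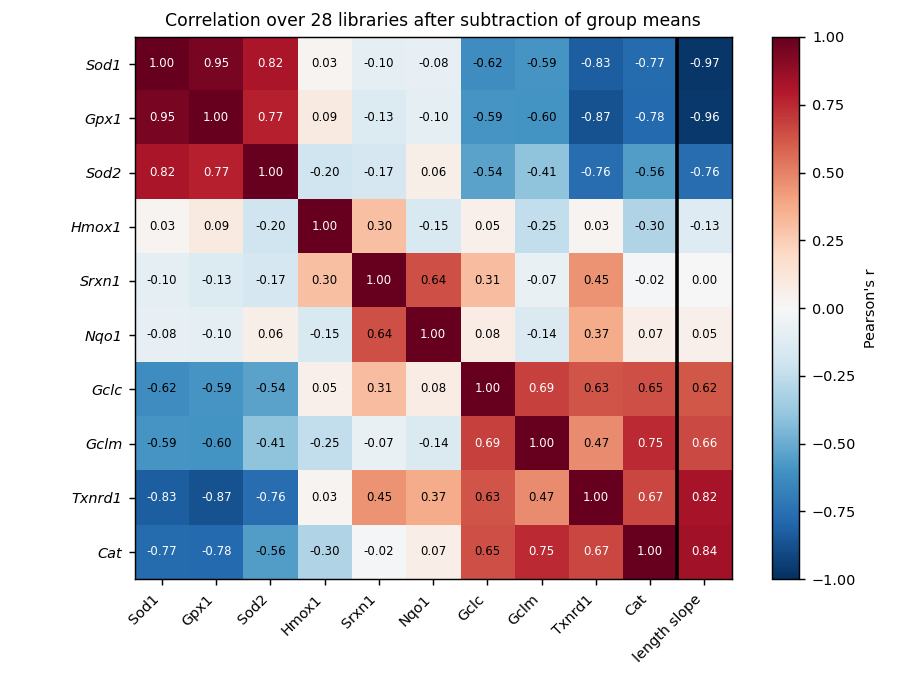
Pearson's r (colour scale from -1 to 1) between each pair of the 10 genes over 28 libraries after subtraction of group means, with the r of each gene with the exon-length slope of the library beside it. *Sod1*, *Gpx1* and *Sod2* form one block, *Gclc*, *Gclm*, *Txnrd1* and *Cat* the opposite one, and *Hmox1*, *Srxn1* and *Nqo1* lie near 0 with the slope.

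The 3 genes most like each member were sought in the same way among 12334 genes with a mean of at least 1 CPM. For *Sod1* they were *Gchfr*, *Asgr1* and *Aamp* (r from 0.987 to 0.99), for *Gpx1* *Bcas2*, *Mtln* and *S100a16* (0.968 to 0.971), and for *Sod2* *Mkks*, *Atp5f1* and *Etfa* (0.891 to 0.892). For *Cat* the genes given are *Calcoco1* and *Aldh5a1* (0.957 and 0.952), for *Txnrd1* they were *Mast2*, *Cherp* and *Znfx1* (0.906 to 0.930), for *Gclm* *Cldn12*, *Cped1* and *Serinc5* (0.868 to 0.884), and for *Gclc* *Aox1*, *Necab1* and *Kctd18* (0.792 to 0.812). *Hmox1* was most like *Cxcl10*, a chemokine, *Apobec1*, an RNA-editing deaminase, and *Ifngr1*, a subunit of the interferon gamma receptor (0.733 to 0.812). *Srxn1* was most like *Slc48a1*, *Ppfibp2* and *Mcm4* (0.695 to 0.720), and *Nqo1* was most like *Mad2l1*, *Srxn1* and *Cyp20a1* (0.621 to 0.662). The values of *Srxn1* and *Nqo1* were the lowest, with the highest of *Srxn1*, 0.720, close to the lowest of *Hmox1*, 0.733. These are the highest of 12334 values per member, and the level that chance alone would give was not tested.

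Around these genes, the transcripts of the NRF2 pathway itself did not pass in either sex, 0 of 10 regulators by edgeR, with 1 at an unadjusted p under 0.05 in males and 0 in females, and 0 by DESeq2. *Mafk*, a small MAF partner, had a log2 fold change of -0.28 in males (adjusted p = 0.1445), *Rbx1* of the CUL3 ligase had 0.28 (adjusted p = 0.2594), and *Keap1* had 0.12 (adjusted p = 0.2734). *Nfe2l2*, named here as the factor itself and not by the rule for naming genes, had -0.083 (SE 0.090, adjusted p = 0.5739). By library size alone and by hepatocyte markers, 3 of 10 were called lower in males. Over all 21583 genes, 4084 and 4392 were called lower under these scalings, which shift all genes down. The NRF2 protein, which is regulated by its breakdown, was not measured.

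Among 25 other NRF2 targets, 3 were higher and 4 lower in SIRT6-tg males under TMM, and 0 higher and 4 lower by library size alone. These and the counts of the next lists stand against 9.68% of all genes higher and 11% lower under TMM, and for these targets the shares were close to that. By library size alone, 210 of 21583 genes were called higher and 4084 lower. *Cbr3*, a carbonyl reductase, ranged from 1.13 to 8.45 CPM (median 2.13) in male WT and from 0.624 to 1.28 CPM (median 0.822) in male SIRT6-tg livers, with a log2 fold change of -1.84 (SE 0.38, edgeR adjusted p = 6.6e-04). *Gstm3*, a glutathione transferase from a family of close copies among which reads may be split, ranged from 54.6 to 261 CPM (median 79.5) in male WT and from 30.0 to 56.6 CPM (median 51) in male SIRT6-tg livers, with a log2 fold change of -1.31 (SE 0.31, adjusted p = 0.0029). *Slc7a11*, the cystine carrier, was barely detected, with 2 to 28 reads per male WT library (median 11) and 0 to 2 reads per male SIRT6-tg library (median 1), and it passed as lower (adjusted p = 1.4e-04). *Slc7a11* was also the 1 gene of this list whose effect differed between the sexes (edgeR adjusted p = 0.0431), with 0 to 8 reads in WT and 0 to 4 reads in SIRT6-tg females. That 1 of 25 is near the 5.05% of all genes that passed in this contrast.

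The genes that supply glutathione and NADPH were 5 higher and 1 lower of 16 in males under TMM, 1 higher and 2 lower by library size alone, and 3 higher and 0 lower without male WT replicate 6 and male SIRT6-tg replicate 7. *Me1*, the cytosolic malic enzyme, ranged from 87.1 to 161 CPM (median 117) in male WT and from 172 to 267 CPM (median 199) in male SIRT6-tg livers, and differed by 0.85 on the log2 scale (SE 0.14, edgeR adjusted p = 6.5e-05). The genes named in each list were picked by adjusted p in this comparison, so ranges without overlap are no added support. Such ranges, with SIRT6-tg above WT, were found for 2.6% of all genes. *Idh1*, the cytosolic isocitrate dehydrogenase, rose by 0.45 (adjusted p = 1.9e-04) and *Cbs*, cystathionine beta-synthase, by 0.43 (adjusted p = 0.0103), both under TMM.

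The list of other peroxidases and thiol reductases had 9 higher and 2 lower of 26 in males under TMM, and 1 higher and 5 lower by library size alone. It also holds genes of neither class, *Sod3*, *Ccs*, *Mt1* and *Mt2* among them. *Txnrd2*, the thioredoxin reductase of mitochondria, ranged from 25.7 to 36.2 CPM (median 29.4) in male WT and from 37.8 to 65 CPM (median 45.5) in male SIRT6-tg livers. Its log2 fold change was 0.64 (SE 0.12, edgeR adjusted p = 1.9e-04), whereas that of the cytosolic *Txnrd1* was -0.13 and did not pass. *Gpx7*, a peroxidase of the endoplasmic reticulum, fell by 0.95 (adjusted p = 0.0010) and *Sod3*, the extracellular superoxide dismutase, fell by 0.50 (adjusted p = 0.0011).

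The list of oxidases that produce hydrogen peroxide, many of them in peroxisomes alongside *Cat*, had 7 higher and 1 lower of 11 expressed in males under TMM, 1 and 1 by library size alone, and 0 and 1 by hepatocyte markers. It also holds *Sardh*, a dehydrogenase and not such an oxidase, which is among those called higher (0.42, edgeR adjusted p = 0.0105). *Hao1*, the hydroxyacid oxidase of the liver, ranged from 195 to 270 CPM (median 221) in male WT and from 291 to 333 CPM (median 299) in male SIRT6-tg livers. Its log2 fold change was 0.46 (SE 0.089, edgeR adjusted p = 3.3e-04). *Pipox*, the pipecolic acid oxidase, rose by 0.38 (adjusted p = 6.0e-04) and *Uox*, urate oxidase, rose by 0.61 (adjusted p = 0.0014), both under TMM. *Hao1* and *Uox* were also the 2 of 11 whose effect differed between the sexes, by 0.45 (adjusted p = 0.0304) and 0.78 (adjusted p = 0.0123).

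The median log2 fold changes in males under TMM were 0.037 for the regulators, 0.12 for other targets, 0.14 for glutathione and NADPH supply, 0.35 for peroxidases and reductases, and 0.44 for oxidases, against 0.06 over all genes. By hepatocyte markers the median was -0.31, -0.22, -0.19, -0.045 and 0.089 in the same order, against -0.30 over all genes. In females 0 genes of the 5 lists were called by edgeR or by DESeq2, and 2 of 25 other targets and 2 of 26 peroxidases and reductases had an unadjusted p under 0.05.

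**Figure D5:**
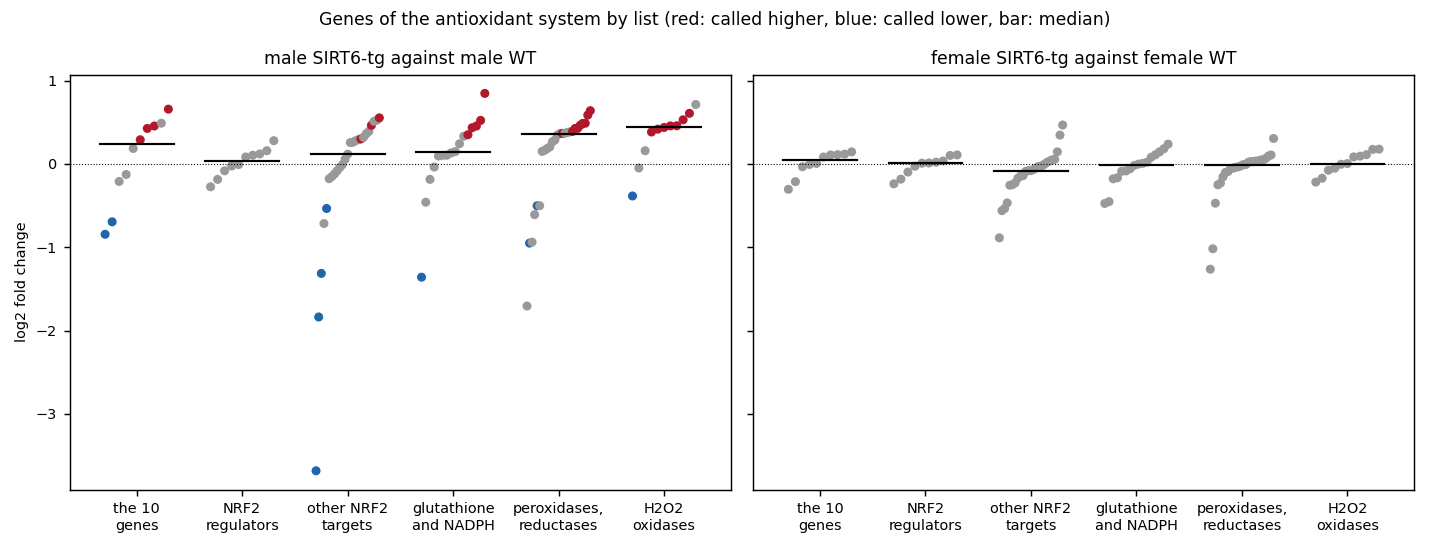
Log2 fold change (vertical axis) of the 10 genes and of the 5 lists around them in males and in females under TMM, with 1 point per gene, red if called higher and blue if called lower, and a bar at the median of each list. In males 7 of 11 genes of the oxidase list and 9 of 26 of the peroxidase and reductase list are called higher, 1 of each by library size alone. The lowest point is *Slc7a11*, which had 0 to 2 reads per male SIRT6-tg library, so its fitted value does not measure a size. In females no gene is called.

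Markers of other cell types moved in the same male comparison. Hepatocyte markers were 4 higher and 0 lower of 11 under TMM and 0 higher by library size alone, with a summed 110564 to 149783 CPM in male WT and 135731 to 187039 CPM in male SIRT6-tg livers. T cell markers were lower in 10 of 10, from a summed 19.4 to 71.5 CPM to 5.96 to 10.3 CPM, and stellate cell markers in 5 of 6, from 304 to 568 CPM to 259 to 375 CPM, all also under library size alone, where the last were lower in 6 of 6. B cell markers were lower in 3 of 6 and sinusoidal endothelial markers in 1 of 7 under TMM, and in 5 of 6 and 4 of 7 by library size alone. Cholangiocyte markers were called in neither direction under TMM and 2 of 6 as lower by library size alone. Of the erythroid markers 1 of 7 was higher under TMM and 0 by library size alone. Over all genes 9.68% were higher and 11% lower under TMM, and 210 of 21583 were higher and 4084 lower by library size alone. None of these markers was at 0 throughout a group, and their part in the changes of the 10 genes was not tested.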

How the data were processed

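The authors prepared single-end libraries of liver RNA with NEBNext Ultra, aligned them to mm10 with STAR 2.5.0a, and counted uniquely mapped reads per gene with HTSeq-count on an earlier Gencode release. The authors deposited these counts unnormalized, in 1 column per library, and all 28 columns were matched to samples by name, so 0 were left unmapped. Groups came from the sex and genotype in the labels, 7 libraries each. The study's methods say that littermates were compared, but the labels do not tie libraries to litters.

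Symbols, positions and exon lengths came from Gencode vM21 (GRCm38), in which 49326 of 49585 features had a symbol and 43749 had the same versioned identifier. Genes with a mean RLE-normalized count of at least 0.5 were tested, 21583 in all. The test was edgeR's quasi-likelihood test (edgeR 4.0.16, limma 3.58.1, R 4.3.3) with TMM factors, robust estimation and the 28 libraries in 1 fit of 4 groups. P-values were adjusted by Benjamini-Hochberg over all genes tested, and a gene was called at an adjusted p under 0.05. The test was checked on simulated counts in which all genes shared a dispersion and few genes changed, as many up as down. Those counts hold no shift in scaling between groups, so the check does not bear on how calls depend on the scaling. The SE is the log2 fold change divided by the square root of the F statistic, an interval is 1.96 SE to each side, and CPM were computed from the TMM-scaled library sizes. Intervals rest on the spread between mice, and counts of a few reads add counting error. Library totals ranged from 18758863 to 35393069 with a median of 26012203, and no pair of libraries of a group agreed within sampling noise (chi-square per gene of at least 12.2 over 84 pairs).

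The 10 genes, the 5 pathway lists and the 8 marker lists were chosen with earlier results of these data known. By the rule for naming genes, each pathway list gives the 3 members with the lowest adjusted p in males and any member that passes in females, and each of the 10 genes gives the 3 genes most correlated with it within groups, of which 1 is not reported here. The use of the principal transcript as the length, the minimum of 1 CPM for likeness, the form TGAGNNNGC, and the relations with the exon-length slope and the macrophage sum were chosen after the data were seen. *Dao* was the member of the oxidase list that did not reach the minimum for testing. The alternatives were other scalings (RLE, upper quartile, library size alone, the summed hepatocyte markers), other filters on low counts, DESeq2 1.42.0, only the groups compared, a replicate block, 2 surrogate variables (sva 3.50.0), removal of the trend on exon length and GC content, and each library left out. Leaving out 2 libraries at a time was added after seeing the data. Comparisons between a male of one genotype and a female of the other were not made.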

Additional observations from a re-analysis of the deposited data

Results flagged for a closer look

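Of the 40 sets formed by 10 genes and 4 groups, 7 held a mouse whose gap to its nearest neighbour exceeded Dixon's 95% critical value, where chance alone flags about 1 in 20, or 2 of 40. Male WT replicate 6 accounts for 3 of them, with the highest *Sod1* of its group, 1201 CPM against 845 CPM in the next mouse, the highest *Gpx1*, 2592 CPM against 1838 CPM, and the lowest *Cat*, 1225 CPM against 1964 CPM. In male WT replicate 7 *Srxn1* was highest, at 139 CPM against 75.6 CPM in the next mouse. In male SIRT6-tg replicate 7 *Txnrd1* was lowest, at 96.9 CPM against 146 CPM. In male SIRT6-tg replicate 2 *Nqo1* was highest, at 11.4 CPM against 8.75 CPM, from 275 reads. In female WT replicate 3 *Srxn1* was highest, at 66.2 CPM against 42.6 CPM. Male WT replicate 6 and male SIRT6-tg replicate 7 also had the lowest exon-length slopes of all libraries, and the part of that slope in these values was not tested.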

How the results depend on the processing

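Each comparison was recomputed under 41 alternatives, 28 of which left out 1 library, and the difference between the sexes under 40. In the male comparison *Hmox1* (-1.21 to -0.705) and *Srxn1* (-1.09 to -0.416) were called lower in all 41, at adjusted p up to 0.0454. *Sod1* was lost in 16 of 41, among them RLE (0.62, adjusted p = 0.0663) and upper-quartile factors (0.57, adjusted p = 0.102), and *Gpx1* was called in 5. The number of genes called in males was 3 by library size alone and 4 to 7 with 1 library left out. In females it was 0 throughout. For the difference between the sexes it was 2 by hepatocyte markers, 3 with surrogate variables and 0 with any 1 library left out. Between WT males and females it was 9 by hepatocyte markers and 3 to 4 with 1 library left out, and between SIRT6-tg males and females 8 with surrogate variables, 5 with the length and GC trend removed, and 2 to 4 with 1 library left out. Deviations from the group means in same-number libraries had r from -0.118 to 0.229 in males and -0.283 to 0.271 in females. Libraries of different groups and numbers had r from -0.393 to 0.46. Such values cannot settle whether the replicate numbers pair the mice, which the labels do not say. With the replicate block 6 genes were called in males and 0 in females. The cause of each shift was not tested.

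Signs changed in 71 values, mostly near 0. By library size alone and by hepatocyte markers *Gclc* in males was -0.0869 and -0.158, and *Gclm* was -0.0623 by the latter. In females *Txnrd1* was 0.00546 and 0.129, and *Nqo1* was 0.0938 by hepatocyte markers. *Sod1* in females was -0.00792 with upper-quartile factors, -0.00418 with filterByExpr, -0.0372 with the replicate block, -0.00268 without male WT 6 and 7, and -0.000666 without male WT 6 and male SIRT6-tg 7. The difference was -0.214 for *Gclc* and -0.0846 for *Gclm* by library size alone, and by hepatocyte markers -0.419 for *Gclc*, -0.278 for *Gclm*, -0.136 for *Cat*, -0.181 for *Sod2* and -0.165 for *Gpx1*. Between WT males and females *Sod1* was -0.0017 with upper-quartile factors, -0.0152 with the replicate block, -0.0772 with surrogate variables, and -0.137 and -0.129 without these library pairs. There *Gclm* was 0.169 by library size alone, 0.532 by hepatocyte markers (adjusted p = 6.28e-04), 0.00536 with surrogate variables, 0.0589 with the length and GC trend removed, and 0.0656 and 0.0493 without the pairs. *Cat* there was 0.0731 by library size alone, 0.432 by hepatocyte markers (adjusted p = 0.0232) and 0.0319 without male WT 6 and 7, *Nqo1* was 0.0709 by hepatocyte markers, and *Gpx1* was -0.0572 with the trend removed and -0.0199 and -0.0232 without the pairs. Between SIRT6-tg males and females *Hmox1* was -0.0104 with the trend removed.

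With 1 library left out, female *Nqo1* ranged from -0.0833 to 0.0318, *Txnrd1* from -0.0599 to 0.0461 and *Sod1* from -0.162 to 0.109. The difference for *Gclc* ranged from -0.0108 to 0.136. Between WT males and females *Gclm* ranged from -0.0458 to 0.0381, *Sod1* from -0.141 to 0.124 and *Gpx1* from -0.0351 to 0.188, and between SIRT6-tg males and females *Hmox1* ranged from -0.0102 to 0.319.

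Over all genes the split of calls moved too. Between WT males and females it was 1436 higher and 1233 lower under TMM, 3657 and 555 by library size alone, and 10321 and 222 by hepatocyte markers. Between SIRT6-tg males and females it was 2787 and 2201 under TMM, 1961 and 3041 with upper-quartile factors, 1896 and 2964 by library size alone, and 2982 and 1206 by hepatocyte markers. For the difference it was 260 and 829 under TMM, 1478 and 1285 with surrogate variables, and 17 and 2911 by hepatocyte markers.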

Other observations

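The lists around the 10 genes also differed between the sexes under TMM, where directions depend on the scaling. In SIRT6-tg mice sex and the degree of *Sirt6* overexpression cannot be told apart. Over all genes 6.65% were higher and 5.71% lower in WT males, and 12.9% higher and 10.2% lower in SIRT6-tg males, and several of the counts below are near those shares. In WT mice 6 of 25 other NRF2 targets were higher and 2 lower in males, and in SIRT6-tg mice 10 were higher and 1 lower. Glutathione and NADPH supply had 1 higher and 1 lower of 16 in WT males and 6 higher and 2 lower in SIRT6-tg males. Other peroxidases and thiol reductases had 3 higher and 3 lower of 26 in WT males and 8 higher and 3 lower in SIRT6-tg males. Oxidases had 1 higher and 2 lower of 11 in WT males and 2 higher and 1 lower in SIRT6-tg males. Of the 10 NRF2 pathway regulators, 2 were higher in WT males, *Mafg*, a small MAF partner, and *Sqstm1*, an adaptor of autophagy, and 3 were higher in SIRT6-tg males. *Mafg* and *Sqstm1* were named after their values were seen.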
